A study of Mus musculus with 288 samples.

Results

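Keratins Krt8, Krt18, Krt19, Krt7 and Krt15 were followed across single cells sorted from mouse lung. They are 5 of the 24781 genes in the count table, chosen by name as keratins of simple and airway epithelium. Each well was placed in a class by the share of its counts from either of a pair of secreted-protein genes. Wells with at least 1% of their counts from Scgb3a1, an airway secretoglobin, are called Scgb3a1 wells (74 wells). Wells with at least 1% from Sftpc, a surfactant protein gene of the alveolar type 2 cell, are called Sftpc wells (63 wells). The 90 wells below 1% for both are called other wells, and 0 wells reached both limits. Wells of 2340 counts or fewer were left out, a limit of 10 times the larger total of the 2 negative control wells (medium without a cell), which kept 227 of 286 wells.

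All cells of all 3 classes came from C57BL/6 mice at 4 months of age with the genotype Scgb1a1-CreER;Rosa26-mTmG. This is a recombinase expressed under the promoter of Scgb1a1, the club cell secretoglobin, with a reporter that changes its membrane fluorescence after recombination. The sorted gate was Scgb1a1+, CD24low within Epcam+CD45-CD31- cells, so cells without a history of Scgb1a1 promoter activity, or with high CD24, were not sampled. The labels do not tie a cell to an animal, so the cells count as 1 sample, no difference could be checked in a replicate, and no p-value is given. Classes are described by their counts and counting intervals alone.

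Keratins are the intermediate filament proteins of epithelial cells. A filament is built from pairs of a type II keratin (here Krt8 and Krt7) and a type I keratin (here Krt18, Krt19 and Krt15). Krt8 and Krt18 are the usual pair of simple epithelia and support cells against mechanical and other stress, Krt7 and Krt19 accompany them in ducts and airways, and Krt15 is best known from basal cells of stratified epithelium. In the lung, Krt8 is also known to increase in alveolar epithelial cells that pass through a transitional state after injury.

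On the mouse assembly GRCm38, with the GENCODE M21 annotation, all members are protein-coding genes in the keratin clusters. The type II genes lie on chromosome 15, Krt7 at chr15:101411043-101430313 on the plus strand and Krt8 at chr15:101996698-102004482 on the minus strand. Krt18, though type I, lies beside Krt8 at chr15:102028180-102032027 on the plus strand, with 23697 bases between the genes. Krt15 (chr11:100131758-100135928) and Krt19 (chr11:100140810-100148665) are neighbours on the minus strand of chromosome 11, with 4881 bases between them. Krt8 is overlapped on the opposite strand by Gm36026 and Krt7 by Gm671. Krt8 has a near-identical processed pseudogene, Krt8-ps (98.6% over 941 bases), and Krt18 resembles the pseudogenes Gm5200 (90.4% over 1267 bases) and Gm17847 (86.5% over 1065 bases). None of these 5 genes has a row in the table analysed, and counting is not stated to use strand, so reads shared with them could stand under either keratin.

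The upstream sequences of the neighbouring pair Krt8 and Krt18 and of Krt7 are shown, the 3 of the 5 members matched in the promoter source used. No promoter sequence was found there for Krt19 and Krt15. Each line is the 250 bases before the RefSeq start on GRCm38.p6, read 5' to 3' on the gene's own strand, at chr15:102004343-102004592 (minus) for Krt8, chr15:102027966-102028215 (plus) for Krt18 and chr15:101412153-101412402 (plus) for Krt7. RefSeq and GENCODE place the starts differently: the Krt7 window lies inside the GENCODE span of Krt7 given above, and the Krt8 and Krt18 windows partly overlap theirs. Capitals mark GGGCGG or its reverse complement CCGCCC.
Krt8: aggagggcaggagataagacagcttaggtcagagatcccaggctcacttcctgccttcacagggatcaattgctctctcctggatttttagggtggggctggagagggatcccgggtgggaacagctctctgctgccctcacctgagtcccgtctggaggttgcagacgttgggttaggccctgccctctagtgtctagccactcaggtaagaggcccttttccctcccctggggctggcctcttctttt
Krt18: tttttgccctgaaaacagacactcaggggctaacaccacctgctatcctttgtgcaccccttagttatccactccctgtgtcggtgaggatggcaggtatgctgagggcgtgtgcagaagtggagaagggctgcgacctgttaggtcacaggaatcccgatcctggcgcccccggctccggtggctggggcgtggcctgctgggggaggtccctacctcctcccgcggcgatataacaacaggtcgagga
Krt7: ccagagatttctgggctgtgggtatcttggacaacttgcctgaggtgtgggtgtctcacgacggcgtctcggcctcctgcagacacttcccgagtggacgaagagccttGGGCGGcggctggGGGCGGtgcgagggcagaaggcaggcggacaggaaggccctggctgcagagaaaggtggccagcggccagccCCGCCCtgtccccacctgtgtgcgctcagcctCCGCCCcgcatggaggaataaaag

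The letters searched, on both strands, were the TATA-box form TATAAA. Also searched were the CCAAT box as CCAAT, the GC box as GGGCGG and the AP-1 form TGANTCA. No match overlapped another. Krt7 held the GC box 4 times and none of the other letters. No match to any of the 4 was present in the windows of Krt8 and Krt18, which says only that these letters are not in these windows. Among 32851 RefSeq promoters, over the same 250 bases before the start, 32.7% held the GC box letters, 12.4% the TATA form, 33.8% the CCAAT box and 6.75% the AP-1 form. A match is a description of letters and not a binding site.

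The Scgb3a1 wells held 513183 counts in all (3376 to 15088 a well, median 6940), the Sftpc wells 240677 (2384 to 8806, median 3529) and the other wells 505258 (2419 to 9718, median 5406). Depth thus moved with class, so the shares of wells below are also given after thinning each well to 3151 counts. Thinning leaves out shallower wells, so thinned shares are of 74 Scgb3a1 wells, 44 of the 63 Sftpc wells and 86 of the 90 other wells. The 2 controls held 41 and 234 counts, with 1 count of Krt19 in the first and 0 of the other 4 keratins. Club cell markers summed to 311018 CPM (a gene's counts as a share of all counts of the class, scaled to CPM) in Scgb3a1 wells. The sum was 60936 CPM in Sftpc wells and 387133 CPM in other wells, where it was highest. Most of each sum was Scgb1a1, at 227810, 44944 and 305254 CPM in the same order. Scgb3a2 went the other way, at 44427 CPM in Scgb3a1 wells and 18353 CPM in other wells. By the calls defined below, 2 of 10 club genes were higher and 1 lower in Scgb3a1 over other wells. Alveolar type 2 markers without Sftpc, which selects its class, summed to 6933 CPM in Scgb3a1 wells, 70451 CPM in Sftpc wells and 13276 CPM in other wells. Goblet cell markers summed to 5298, 133 and 174 CPM. The leukocyte gene Ptprc and the endothelial gene Pecam1 had 0 counts in every kept well. The table's columns came in 3 successive sets of 96, which the headers do not explain. Of the Scgb3a1 wells 38, 31 and 5 lay in sets 1, 2 and 3, of the Sftpc wells 6, 17 and 40, and of the other wells 38, 33 and 19. The main levels, ratios, makeup shares and correlations are therefore also given within sets.

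Summed over all 5 keratins and all column sets, the Scgb3a1 wells held the most keratin transcript and the Sftpc wells the least. The summed level was 4371 CPM in Scgb3a1 wells, 1039 CPM in Sftpc wells and 2114 CPM in other wells. A well held a median of 25 keratin counts (6 to 100) among Scgb3a1 wells, 2 (0 to 24) among Sftpc wells and 10 (0 to 56) among other wells. The ranges of all 3 classes overlapped. The Scgb3a1 wells were above the other wells in column sets 1 (4177 against 1867 CPM) and 2 (4647 against 1779 CPM), but not in set 3, with 3465 CPM (2783 to 4265) in Scgb3a1 wells and 3560 CPM (3171 to 3985) in other wells. Of the 5 genes, a median of 4 was detected per Scgb3a1 well, 2 per Sftpc well and 3 per other well. No keratin of the 5 was detected in 0 of 74 Scgb3a1 wells, 9 of 63 Sftpc wells and 1 of 90 other wells.

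**Figure D1:**
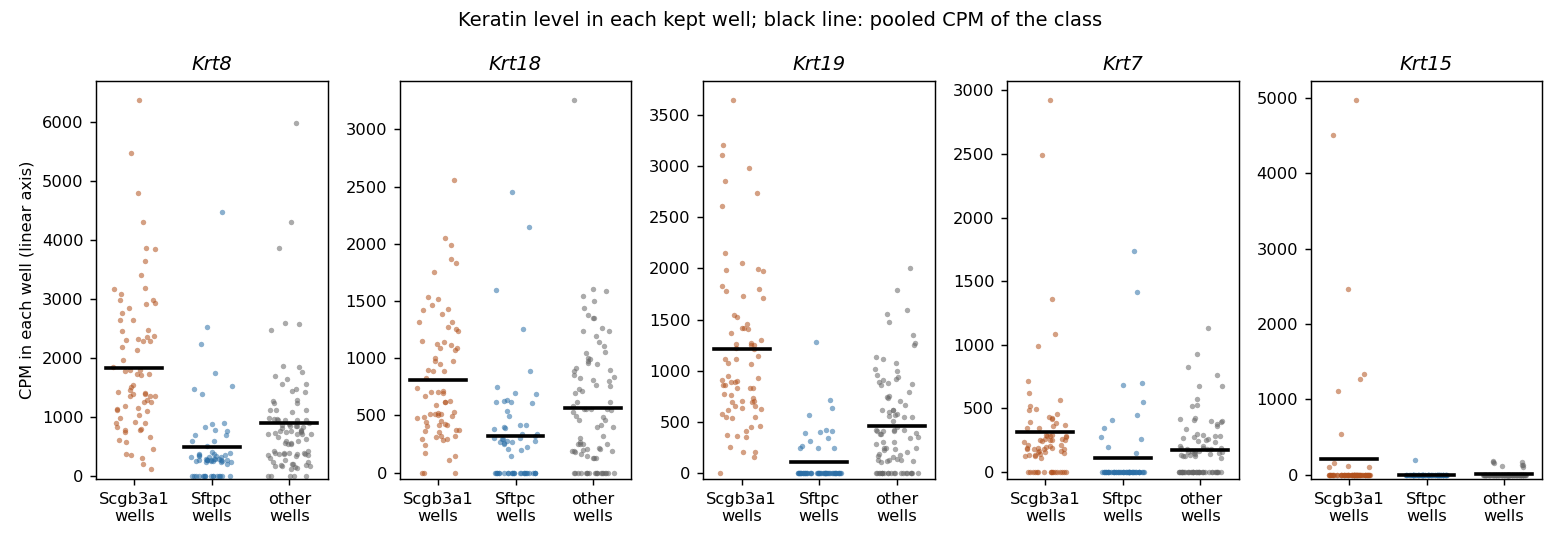
CPM of each keratin (y axis, linear, own scale per panel) in each of the 227 kept wells (points), by class, with the pooled CPM of the class as a black line. Krt8 and Krt19 lie highest in the Scgb3a1 wells with overlap of all classes, and the Krt15 counts come from a few Scgb3a1 wells.

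Krt8, the type II keratin of simple epithelium, was detected in all 74 Scgb3a1 wells, where it ran from 125 to 6371 CPM with a median of 1627. It ran from 0 to 4469 CPM (median 281) in Sftpc wells and from 0 to 5976 CPM (median 736) in other wells. The classes overlapped over most of their range. Pooled over wells, Krt8 stood at 1834 CPM (95% Poisson interval 1718 to 1955, 941 counts) in Scgb3a1 wells, 490 CPM (406 to 587, 118 counts) in Sftpc wells and 903 CPM (822 to 989, 456 counts) in other wells. It was counted in 74.6% of Sftpc wells and 94.4% of other wells, and, among the wells deep enough to thin, in 96.6% of 74 Scgb3a1, 58.8% of 44 Sftpc and 84.0% of 86 other wells.

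Krt18, the type I partner of Krt8, differed less between classes. It ran from 0 to 2553 CPM (median 679) in Scgb3a1 wells, from 0 to 2450 (median 256) in Sftpc wells and from 0 to 3260 (median 487) in other wells, so its highest well was an other well. Pooled levels were 811 CPM (735 to 892) in Scgb3a1 wells, 320 CPM (252 to 400) in Sftpc wells and 566 CPM (502 to 636) in other wells. That order is the order of Krt8, with neighbouring intervals apart. After thinning, Krt18 was counted in 85.9% of Scgb3a1, 50.2% of Sftpc and 69.8% of other wells.

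Krt19, a type I keratin of ducts and airways with a very short tail, separated the classes most widely among the 4 keratins that were counted in many wells. It ran from 0 to 3646 CPM (median 938) in Scgb3a1 wells, from 0 to 1277 (median 0) in Sftpc wells and from 0 to 2004 (median 391) in other wells. It was counted in 73 of 74 Scgb3a1 wells, 14 of 63 Sftpc wells and 69 of 90 other wells. Pooled, it stood at 1208 CPM (1115 to 1307) in Scgb3a1 wells, 112 CPM (73.9 to 163) in Sftpc wells and 457 CPM (400 to 520) in other wells. Thinning left shares of 93.2%, 17.3% and 64.5% in the same order of classes.

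Krt7, the type II keratin of ducts and glands, was sparser. It ran from 0 to 2927 CPM (median 207) in Scgb3a1 wells, from 0 to 1734 (median 0) in Sftpc wells and from 0 to 1132 (median 137) in other wells. Pooled levels were 310 CPM (264 to 362, 159 counts) in Scgb3a1 wells, 112 CPM (73.9 to 163, 27 counts) in Sftpc wells and 172 CPM (138 to 212, 87 counts) in other wells. The intervals of the Sftpc and other wells overlapped. Thinned shares of wells with a count were 53.0% of Scgb3a1, 14.1% of Sftpc and 37.6% of other wells.

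Krt15 behaved as a gene of few wells. Its 116 counts over the kept wells fell as 107 in Scgb3a1 wells, 1 in Sftpc wells and 8 in other wells, or 209 CPM (171 to 252), 4.15 CPM (0.105 to 23.1) and 15.8 CPM (6.84 to 31.2). Only 11 of 74 Scgb3a1 wells had any count, and 3 of them held 32, 26 and 17 counts, 70.1% of the class. At least 3 counts were seen in 7 of 74 Scgb3a1 wells (9.46%) and in 0 of 63 Sftpc and 0 of 90 other wells. The remaining wells with Krt15, 4 Scgb3a1 wells, 1 Sftpc well and 8 other wells, had 1 count each. The basal keratins Krt5 and Krt14 had 0 counts in every kept well, and Trp63, the basal cell transcription factor, had 1 count, in a Krt15 well. Every one of the 7 wells also held counts of Krt8, Krt18, Krt19 and Krt7, with 10 to 41 counts of Krt8. Krt15 thus occurred beside the other 4 keratins in those wells, and not in place of them.

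Class ratios were formed from the pooled CPM of one class over another, with an exact conditional binomial interval that covers counting error only. A gene was measured when both classes together held at least 20 counts. It was called when its ratio was at least 2-fold and its 95% interval left out 1. The Scgb3a1 wells and the Sftpc wells are each compared with the same other wells, so these comparisons share those wells and their values are given side by side.

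In Scgb3a1 wells over other wells, 3 of the 5 keratins were called higher and 0 lower. Of the 4534 genes measured, 6.75% were called higher and 7.1% lower. Krt15 had a ratio of 13.2 (6.45 to 31.3), Krt19 of 2.64 (2.27 to 3.09) and Krt8 of 2.03 (1.81 to 2.28). Krt7 was at 1.80 (1.38 to 2.36) and Krt18 at 1.43 (1.23 to 1.67), below 2-fold with intervals above 1. At a class limit of 2%, which moves 9 Scgb3a1 wells to the other wells, the Krt15 log2 ratio was 1.91 (86 against 29 counts), against 3.72 at 1%, and it was also called. The median log2 ratio of the 5 was 1.02, against -0.02 over all genes measured. The Krt8 call lay at the limit and was lost at ratios of 1.77 to 1.99 under 7 other settings, among them leaving out column set 1 (1.87), column set 2 (1.77) or its top well (1.97).

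In Sftpc wells over other wells, 1 of the 4 measured keratins was called lower and 0 higher. Of 3852 genes measured, 7.32% were called lower and 14.6% higher. Krt19 had a ratio of 0.245 (0.158 to 0.366). Krt8 was at 0.543 (0.440 to 0.667), Krt18 at 0.565 (0.434 to 0.729) and Krt7 at 0.652 (0.407 to 1.01). Krt15, with 9 counts in both classes, was not measured. The median log2 ratio of the 4 was -0.85, against 0.18 over all genes measured. Abundant secreted-protein counts differed between these classes in both directions, and each such difference moves every other gene's share. Scgb1a1 made 4.49% of counts in Sftpc wells, against 30.5% in other wells. Sftpc itself stood at 152241 CPM in Sftpc wells and 281 CPM in other wells. Relative to the median of all genes, Krt8 stood at a log2 of -1.06, Krt19 at -2.20 and Krt7 at -0.79. With TMM factors, with median-of-ratios size factors, or with a total that leaves out 4 abundant genes, Krt8 and Krt18 were called lower beside Krt19, making 3 of 4.

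Set against each other directly, the Scgb3a1 wells were called higher than the Sftpc wells for all 5 keratins, where 10.5% of 3832 genes measured were called higher, 17.3% lower and 27.8% either way. Krt19 was 10.8-fold higher (7.33 to 16.5), Krt8 3.74-fold (3.09 to 4.57), Krt7 2.76-fold (1.83 to 4.32) and Krt18 2.53-fold (1.98 to 3.27). Krt15 had a ratio of 50.2, with an interval from 8.82 to 2000.4 because the Sftpc wells held 1 count. The median log2 ratio was 1.90, against -0.20 over all genes measured. The share of calls that were higher depends on scaling: 37.7% of all called genes were higher here, against 59.2% with TMM factors, and 66.6% against 46.9% for Sftpc over other wells.

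**Figure D2:**
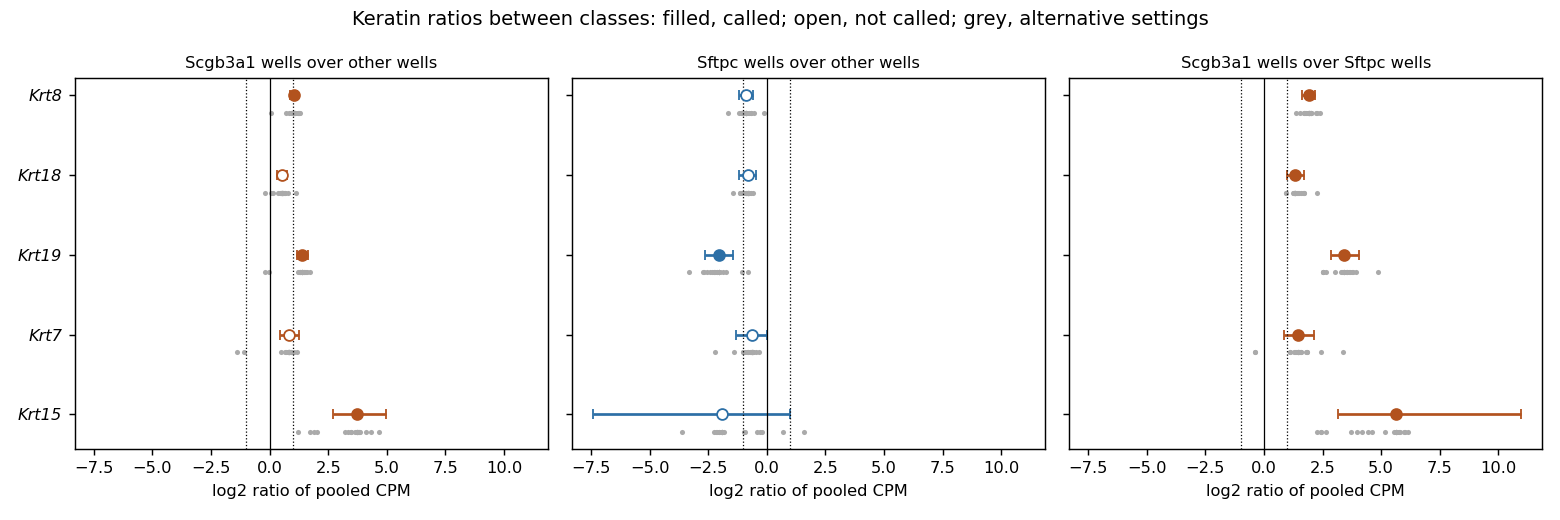
Log2 ratio of pooled CPM (x axis) of each keratin in the 3 class comparisons. Large points carry 95% conditional binomial intervals and are filled where called and open where not, dotted lines mark 2-fold, and small grey points are the alternative settings. Each of the 5 keratins shown was called in Scgb3a1 wells over Sftpc wells, and Krt19 is called in all 3 comparisons.

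Within column sets the picture differed for the other wells of set 3. The Scgb3a1 wells had 1835, 1852 and 1635 CPM of Krt8 in sets 1, 2 and 3, the Sftpc wells 715, 356 and 501 CPM, and the other wells 786, 744 and 1586 CPM. For Krt19 the same order gave 1186, 1281 and 701 CPM, then 209, 44.4 and 122 CPM, then 360, 449 and 705 CPM. In set 3 the Scgb3a1 wells (5) and the other wells (19) had a Krt8 ratio of 1.03 and a Krt19 log2 ratio of -0.0085. In the same set Krt7 stood at 117 CPM in Scgb3a1 wells and 247 CPM in other wells (log2 ratio -1.08, 3 counts against 21), and Krt18 at 896 and 1022 CPM (log2 ratio -0.19), neither called. For Krt8 and Krt19 the higher level of Scgb3a1 wells over other wells was thus called within sets 1 and 2 and not within set 3. Of the 7 other wells with at least 10 counts of ciliated cell markers (Sec14l3 not counted), 5 lay in set 3, and the 7 wells held 86 of the 456 Krt8 counts of other wells. Without such wells the Krt8 log2 ratio within set 3 was 0.69 (42 counts against 60), and the Krt19 log2 ratio -0.18. In Sftpc wells over other wells, Krt19 was not called within set 1 (ratio 0.579, 0.225 to 1.25), where 6 Sftpc wells held 7 counts. In Scgb3a1 wells over Sftpc wells, Krt18 was not called within set 1 (1.90) or without set 2 (1.90), Krt7 not within set 3 (0.777, 3 counts against 21), and Krt15 not within set 1, where the interval began at 0.808. The part of these wells, and of the column sets, in the pooled result was not tested beyond these values.

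**Figure D3:**
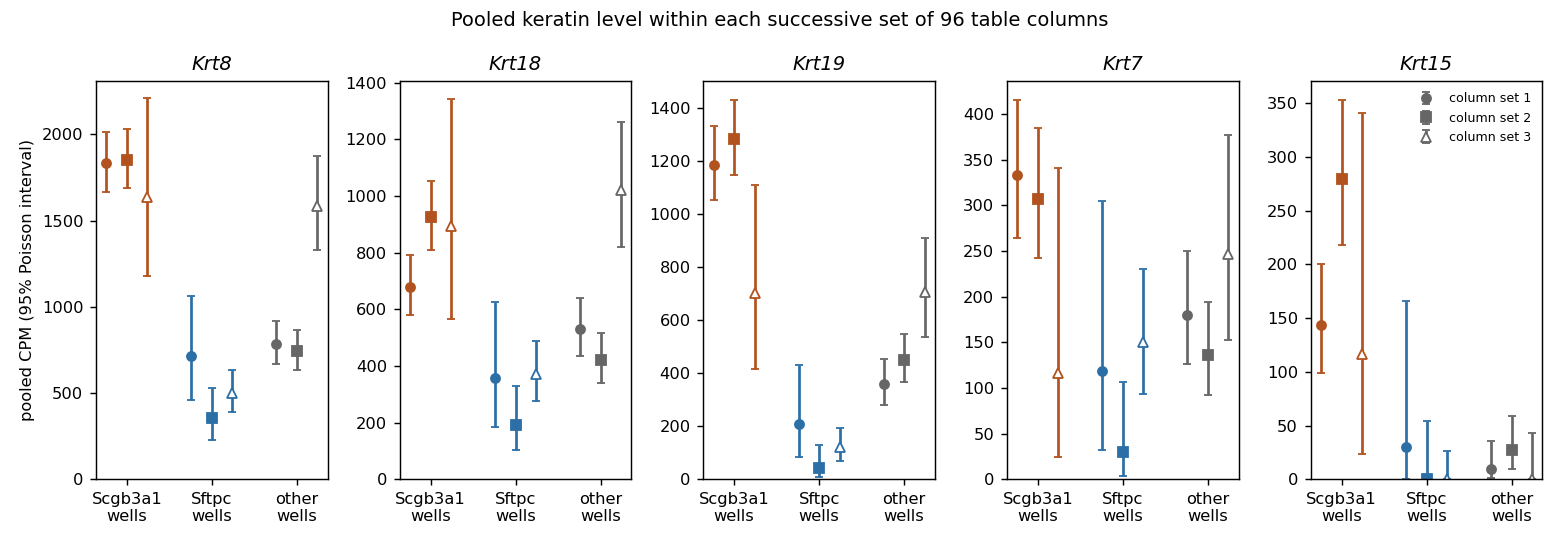
Pooled CPM (y axis, linear) of each keratin with 95% Poisson intervals, by class and by successive set of 96 table columns (circle, square and triangle for sets 1, 2 and 3). The other wells of set 3 stand at 1586 CPM for Krt8, near the Scgb3a1 wells. The Sftpc wells have the lowest Krt8 point in every set, but in set 1 their interval (458 to 1064) overlaps that of other wells (668 to 919).

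The makeup of the keratin counts varied by class for Krt18 against Krt19, less for Krt8 against Krt18, and its intervals overlapped between classes for Krt7 against Krt8. Krt18 made 40.2% (37.2 to 43.2) of the Krt18 and Krt19 counts in Scgb3a1 wells, 74.0% (64.5 to 82.1) in Sftpc wells and 55.3% (50.9 to 59.7) in other wells. Over all columns, Krt19 thus made a larger part of the type I counts in the Scgb3a1 wells and a smaller part in the Sftpc wells than in other wells. Krt8 made 69.3% (66.8 to 71.8) of the Krt8 and Krt18 counts in Scgb3a1 wells, 60.5% (53.3 to 67.4) in Sftpc wells and 61.5% (57.8 to 65.0) in other wells. Within set 2 the Krt8 share was 66.7% (63.0 to 70.2) in Scgb3a1 wells and 63.8% (57.6 to 69.7) in other wells, and within set 3 it was 64.6% and 60.8%, with overlapping intervals in both sets. Krt7 made 14.5% (12.4 to 16.7) of the Krt7 and Krt8 counts in Scgb3a1 wells, 18.6% (12.6 to 25.9) in Sftpc wells and 16.0% (13.0 to 19.4) in other wells. The 2 type II genes together made 49.0%, 58.0% and 50.8% of all 5. These shares compare classes within a gene pair and are not levels per length. Within sets 1, 2 and 3 the Krt18 share of Krt18 and Krt19 was 36.4%, 42.0% and 56.1% in Scgb3a1 wells. It was 59.6%, 48.4% and 59.2% in other wells. The intervals of Scgb3a1 and other wells were apart in set 1 (31.9 to 41.1 and 52.0 to 66.8). They overlapped in set 2 (37.8 to 46.2 and 41.2 to 55.7) and in set 3 (39.7 to 71.5 and 50.8 to 67.2). The intervals of Sftpc and other wells overlapped in every set.

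**Figure D4:**
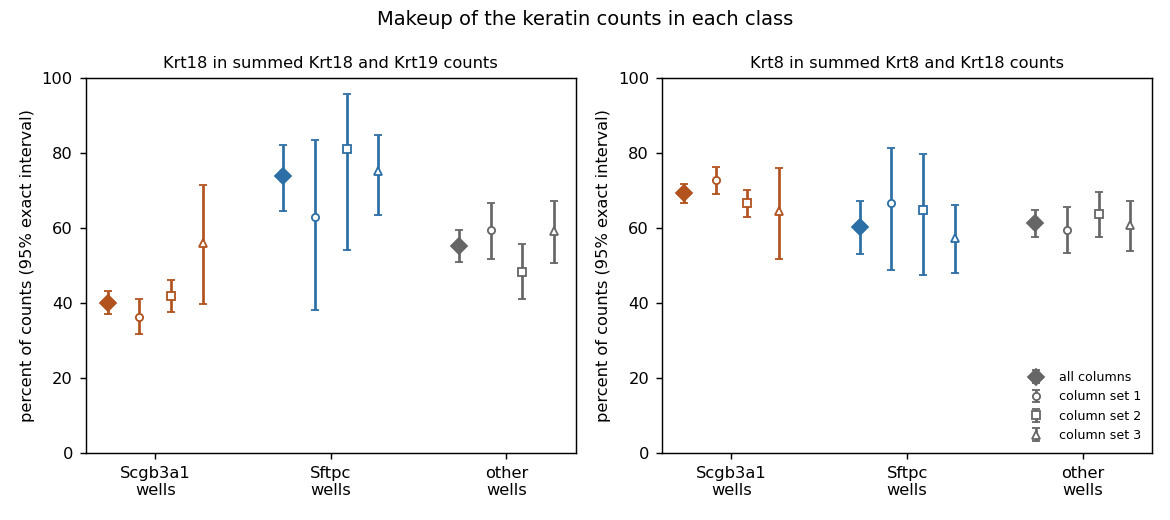
Percent (y axis, 0 to 100, 95% exact binomial interval) that Krt18 makes of the Krt18 and Krt19 counts, and Krt8 of the Krt8 and Krt18 counts, by class; filled diamonds are all columns and open symbols the column sets. The Krt18 share is lowest in Scgb3a1 wells (40.2%) and highest in Sftpc wells (74.0%).

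Across the 227 kept wells, the levels of Krt8, Krt18 and Krt19 varied together, as described by Pearson's r of log2(counts per 10000 + 1). The wells share depth and class, so these values describe them and carry no test. Krt8 and Krt19 had r = 0.61, Krt8 and Krt18 r = 0.58, and Krt18 and Krt19 r = 0.50. Within Scgb3a1, Sftpc and other wells, Krt8 and Krt18 had r = 0.44, 0.38 and 0.56, and Krt8 and Krt19 r = 0.50, 0.31 and 0.33. Krt18 and Krt19 had r = 0.28, 0.41 and 0.32 in the same order of classes. In the 204 wells thinned to equal depth the values were 0.41 for Krt8 and Krt18 and 0.60 for Krt8 and Krt19. For Krt18 and Krt19 the thinned value was 0.38. Within column sets 1, 2 and 3, Krt8 and Krt18 had r = 0.44, 0.66 and 0.60. Krt8 and Krt19 had r = 0.68, 0.58 and 0.54 there, and Krt18 and Krt19 r = 0.35, 0.56 and 0.58. Correlations with Krt7 and Krt15, which are sparse, were between 0.18 and 0.39 over all kept wells and are not read further.

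Among 553 genes with at least 200 counts, the 5 most similar to each keratin were taken by r. For Krt8 these were S100a6 (0.65), Krt19, Anxa1 (0.59), Gsto1 (0.59) and Krt18. For Krt19 they were Gsto1 (0.74), S100a6 (0.66), Lypd2 (0.63), Bpifb1 (0.62) and Krt8. Gsto1 encodes a glutathione transferase, S100a6 a calcium-binding protein and Anxa1 an annexin. For Gsto1, r with Krt19 was 0.67 within Scgb3a1 wells, 0.62 within Sftpc wells and 0.22 within other wells. For Bpifb1, a secreted airway protein, it was 0.56, 0.30 and 0.07, and for Lypd2 0.37, 0.24 and 0.06. For these 3 genes, r with Krt19 was thus lowest within the other wells. For Krt8, r with S100a6, Anxa1 and Gsto1 was lowest within Sftpc wells, at 0.28, 0.26 and 0.09. Within other wells these values were 0.48, 0.52 and 0.30. The Sftpc wells held 12 counts each of S100a6 and Anxa1, in 4 and 10 wells, and 27 of Krt19, in 14 wells. Values of r with these genes within Sftpc wells thus rest on few counts and are not read as a class difference. Krt18 was most like Krt8, Krt19, Anxa1 (0.45), Gsto1 (0.43) and Lgals3 (0.42), Krt7 like S100a6 (0.41), Lgals3 (0.40), Krt19, Ltf (0.38) and Krt8, and Krt15 like Ltf (0.49), Bpifa1 (0.44), Cyp2a5 (0.43), Anxa1 (0.32) and S100a6 (0.30). Ltf, the lactotransferrin gene, had 900 counts in Scgb3a1 wells, 0 in Sftpc wells and 35 in other wells. Bpifa1, a secreted airway protein gene, had 14242, 13 and 20 counts.

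Of 31 other keratins with a row, 20 had 0 counts in all kept wells, among them Krt5, Krt14, Krt17 and Krt20. Krt23, a type I keratin, was the 1 that could be measured, with 116 counts in 73 wells. It had 70 counts (136 CPM) in Scgb3a1 wells, 32 (133 CPM) in Sftpc wells and 14 (27.7 CPM) in other wells. It was called higher in both classes over other wells, at 4.92 (2.75 to 9.46) in Scgb3a1 wells and 4.80 (2.49 to 9.73) in Sftpc wells. In Scgb3a1 over Sftpc wells Krt23 was at 1.03 (0.666 to 1.61) and was not called. Krt10 (11 counts over all classes), Krt13 and Krt85 were below 20 counts. Of the other intermediate filament genes, Vim, the vimentin gene of mesenchymal cells, had 0 counts in all 227 wells, which allows a share of wells with a count of up to 1.32%. Lmna, the lamin A gene, was called higher in Scgb3a1 wells at 2.08 (1.37 to 3.21), with 74, 24 and 35 counts in Scgb3a1, Sftpc and other wells.

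Keratin filaments attach to desmosomes and to plakin cytolinkers. A list of 20 genes was drawn up for these, which also holds Itga6, Itgb4 and Cd151, neither desmosome nor plakin genes. Of the 20, 15 were measured in Scgb3a1 over other wells, 3 called higher and 2 lower (median log2 0.30). Perp, a desmosome membrane protein, had a ratio of 6.50 (3.76 to 12.0), with 99 counts in Scgb3a1, 8 in Sftpc and 15 in other wells. The cytolinker Plec was at 2.31 (1.34 to 4.12) and the integrin Itga6 at 2.30 (1.01 to 5.70), with Ppl at 0.390 (0.216 to 0.675) and Itgb4 at 0.448 (0.189 to 0.985) called lower. Jup, the plakoglobin gene, was at 0.925 and was not called. In Sftpc over other wells, 12 were measured, and Dst (2.94) and Cd151 (2.45) were called higher and Itgb4 lower, with 0 against 22 counts. In Scgb3a1 over Sftpc wells, Evpl, Perp and Plec were called higher and Macf1 and Ppl lower among 12 measured. The calls in this list ran in both directions in each comparison. Of all genes measured, 13.9%, 21.9% and 27.8% were called either way in these comparisons, in the same order.

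Of 12 genes whose products bind or modify keratins, 7 were measured in Scgb3a1 over other wells and 1 was called higher, Pof1b at 8.47 (3.36 to 27.4). That is near the 13.9% of all genes called either way there. In Sftpc over other wells 1 of 7 was called, where 21.9% of all genes were. The small heat shock gene Hspb1 was called lower in Sftpc over other wells at 0.446 (0.299 to 0.649) and was at 1.70 in Scgb3a1 over other wells. Hspa8, Ywhaz and Ywhae, the most counted of the list together with Hspb1, lay between 0.619 and 1.39 in both comparisons with other wells.

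A list of genes named for the transitional epithelial state, in which Krt8 is high, was also mixed. Of 14 measured in Scgb3a1 over other wells, 5 were called higher and 2 lower (median log2 0.71), with Lgals3, a galectin, at 6.89 (5.25 to 9.19), S100a6 at 6.25 (5.09 to 7.73) and Anxa1 at 2.51 (2.01 to 3.16). Cdkn1a, the cell-cycle inhibitor p21, was lower at 0.278 (0.173 to 0.434), and Areg, the growth factor amphiregulin, had 1 count in Scgb3a1, 47 in Sftpc and 19 in other wells. In Sftpc over other wells, 6 of 13 were called lower and 1, Areg, higher at 5.19 (2.99 to 9.37). The 6 included Cldn4, a tight junction claudin, with 1 against 32 counts. In Scgb3a1 over Sftpc wells, 8 of 14 were higher and 2 lower. Of all genes measured, 10.5% were called higher and 17.3% lower in that comparison. The shares were 6.75% and 7.1% in Scgb3a1 over other wells, and 14.6% and 7.32% in Sftpc over other wells. High Krt8 in the Scgb3a1 wells stood beside high S100a6, Lgals3 and Anxa1 but low Cdkn1a and Areg.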

How the data were processed

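Single sorted cells and 2 negative control wells were analysed from 1 table of deposited counts (24781 genes, 288 wells), made by the authors and not normalized. Per the submitters' processing notes, reads were aligned with STAR to mm10. For the annotation, the counter and the collapse of molecular barcodes, nothing was given in the sources used here. If barcodes were not collapsed, the counting intervals are too narrow. All 288 wells were mapped to a sample. Of the symbols, 24249 matched GENCODE M21. Promoter sequences are from RefSeq on GRCm38.p6, in which 3 of the 5 members matched.

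The members, lists and classes were chosen with earlier results of these data known. At the class limits, the lowest Scgb3a1 share inside was 1.01% and the highest outside 0.876%, and for Sftpc 2.07% and 0.734%, with 9 Scgb3a1 wells and 0 Sftpc wells between 1% and 2%. The lowest kept total was 2384 and the highest removed 2243. Levels are summed counts over summed totals as CPM with Poisson intervals, shares of wells have Clopper-Pearson intervals, and ratios have conditional binomial intervals, all 95%. A class at 0 was given 3 counts. No doublet caller was run. Named genes were, per list, the up to 4 of most counts and the up to 4 called ones of largest ratio per comparison, and the 5 most similar genes per member. The ratio calls were tested on simulated data, drawn as Poisson counts for each class as a whole. That simulation held no variation between wells, so it does not cover counts that are uneven over wells. Alternatives covered limits, scaling (TMM of edgeR 4.0.16 in R 4.3.3, which entered no count test), column sets, single wells and thinning. Python 3.11.15, numpy 2.4.6, pandas 2.3.3, scipy 1.17.1 and matplotlib 3.10.9 were used.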

Additional observations from a re-analysis of the deposited data

How the results depend on the processing

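No paired analysis was possible because the wells are single cells whose numbers pair nothing and the results come from no test across samples. Of the other values of a member's log2 ratio, 301 stayed within the main counting interval, 53 lay outside it, and 4 more were called values that changed sign. Those 4 were Krt19 in Scgb3a1 over other wells within column set 3 (log2 -0.0085, and -0.18 without ciliated-marker wells) and Krt7 in Scgb3a1 over Sftpc wells within set 3 (-0.36 with and without them), where 5 Scgb3a1 wells held 3 counts of Krt7; the cause was not tested. Values that had not been called also changed sign: in Scgb3a1 over other wells Krt18 within set 3 (-0.19) and Krt7 within set 3 (-1.08, and -1.38 without ciliated-marker wells), and in Sftpc over other wells Krt15, with at most 6 counts in a class, within sets 1 and 2. The number of members called in Sftpc over other wells, 1, was 2 at a 2% class limit, without ciliated-marker wells and without set 1 or set 3, 3 with TMM, median-of-ratios or a total without 4 abundant genes, 3 at 1.5-fold, and 0, 4 and 3 within sets 1, 2 and 3 (4 within set 3 without ciliated-marker wells). In Scgb3a1 over other wells, 3 became 5 within set 2, 4 without set 3, 0 within set 3 with or without those wells, 1 at 3-fold and 2 under the other settings that lost Krt8. In Scgb3a1 over Sftpc wells, 5 became 4 without set 2, and 3 within set 1, within set 3 with or without those wells and at 3-fold. All genes called in Scgb3a1 over other wells, 628, became 363 without ciliated-marker wells, 374 without set 2, 285, 365 and 91 within the sets, 65 within set 3 without ciliated-marker wells, 316 at 3-fold and 951 with no count minimum. In Sftpc over other wells, 844 became 238 at a well minimum of 20 times the control, 554 without set 2, 475 without set 3, 130, 335 and 330 within the sets, 266 within set 3 without ciliated-marker wells and 496 at 3-fold. In Scgb3a1 over Sftpc wells, 1064 became 375, 670, 642, 194, 440, 155, 155 and 679 under the same settings in the same order. Without its 3 top wells the Krt15 log2 ratio in Scgb3a1 over other wells was 2.03, against 3.72. The scalings moved the median of all genes by up to -0.32 in Sftpc over other wells and 0.38 in Scgb3a1 over Sftpc wells, and no member changed direction under a scaling. The ciliated list as first written took 74 wells because Sec14l3 is widespread. The settings without Sec14l3 and without 3 top wells were chosen after seeing the data. Krt15 and Krt7 in Sftpc wells are limited by depth, with 1 and 27 counts.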

Other observations

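Krtap17-1, a keratin-associated protein gene of the hair keratin cluster, was chosen after its values were seen. It had 9 counts in Scgb3a1 wells (17.5 CPM, in 7 wells), 9 in Sftpc wells (37.4 CPM, in 6 wells) and 94 in other wells (186 CPM, in 34 of 90 wells). Aqp3, a water channel known from basal cells, had 28 counts in 17 Scgb3a1 wells and 0 in Sftpc and other wells. Icam1, the other measured gene of that basal list, ran the other way, with 33 counts in Scgb3a1, 105 in Sftpc and 114 in other wells, Trp63 had 1 count and the remaining 5 genes 0. Msln, known from mesothelium, had 53 counts in Scgb3a1 wells, 0 in Sftpc wells and 1 in other wells, while the mesothelial genes Upk3b, Wt1 and Lrrn4 had 0 counts throughout. All 4 of Krt8, Krt18, Krt19 and Krt7 were counted together in 55 of 74 Scgb3a1 wells (74.3%), 3 of 63 Sftpc wells (4.76%) and 34 of 90 other wells (37.8%), a count also chosen after seeing the values and not thinned for depth.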
